A study of Mus musculus with 8 samples.

Results

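The type I interferon response genes described here are 44 mouse genes that interferon is known to induce, and each was found by its symbol in a table of 55487 genes. They were measured by RNA sequencing in regulatory T cells (Tregs, a CD4 lineage that restrains immune responses) from the spleens of tumor-free mice, in 8 libraries that form 4 groups of 2. The study compared Tregs lacking SRC-3, a transcriptional coactivator encoded by Ncoa3, with control Tregs, in search of expression differences bearing on the anti-tumor effect of the knockout Tregs. KO YFP+ and KO YFP- are the YFP+ and YFP- Tregs of SRC-3 KO mice of mixed background (C57BL/6 and 129SvEv), with the numbers 84 and 85 in each group. WT YFP+ holds YFP+ Tregs of a C57BL/6 WT control, numbers 23 and 24. SRC-3ff holds Tregs of a second WT control on a 129SvEv background, numbers 68 and 72, whose label names no YFP sort. What YFP marks, which cells lost the gene and how old the mice were is not given in the labels. Genotype and strain therefore cannot be told apart in any comparison of a knockout group with a control. The sort named in the labels also differs wherever a YFP+ group is set against SRC-3ff or KO YFP-.

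Type I interferons bind the receptor chains Ifnar1 and Ifnar2, whose kinases Jak1 and Tyk2 phosphorylate STAT proteins, Stat2 among them. Stat2 and Irf9 are subunits of the complex ISGF3, which enters the nucleus and binds interferon-stimulated response elements (ISREs) in the promoters of antiviral genes. Resting lymphocytes carry a basal level of these transcripts, which low constitutive interferon signaling maintains, and the same genes rise steeply in infection.

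Levels are given as FPKM, the number of sequenced fragments from a gene divided by its transcript length and by all mapped fragments of the library. Of the 44 genes, 42 had at least 1 FPKM in at least 2 libraries and were tested, while Oas2 and Mx1 did not. Ncoa3, the targeted gene, stood at 10.9 and 10.2 FPKM in KO YFP+, 32.1 and 32.2 FPKM in KO YFP-, 46.3 and 42.7 FPKM in WT YFP+ and 49.7 and 35.4 FPKM in SRC-3ff. It was thus lowest in the YFP+ knockout cells, and the YFP- knockout cells kept most of the control level. The 7 Treg markers were all above 1 FPKM in every library and summed to between 807 and 1216 FPKM. Foxp3, the Treg lineage factor, was at 19.9 to 31.0 FPKM in the YFP+ libraries and at 113 to 205 FPKM in the others. Il2ra, the interleukin-2 receptor alpha chain, had another order, with 95.7 and 92.4 FPKM in KO YFP+, 43.5 and 42.8 FPKM in KO YFP-, 112.5 and 112.7 FPKM in WT YFP+ and 107 and 83.1 FPKM in SRC-3ff. In bulk libraries, fewer cells of a type and less RNA per cell cannot be told apart. FPKM sums were close, from 384107 to 416393 per library.

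The promoters show how many of these genes carry the element that ISGF3 reads. In RefSeq windows on GRCm38.p6 that run from 250 bases before to 50 bases after the start site, 34 of the 44 members were matched. The ISRE core GAAANNGAAA, searched on both strands with overlapping matches allowed, was present in 18 of the 34, or 52.9%, against 3.99% of all 27025 genes with a window. The motif TTCNNNGAA, the GAS element, was present in 7 of the 34, or 20.6%, against 9.55% of all genes. A match describes the letters of a window, and binding was not measured. Irf7, Xaf1 and Isg20, which passed the test of KO YFP+ against SRC-3ff described below, have no core in their windows and are not shown. The 6 promoters below are examples chosen from the members, and Ifit3 among them passed in no comparison. They are printed in the direction of transcription with the ISRE cores in capitals, and Slfn1 is shown because its window holds none. They lie at chr4:156200769-156201068 on the minus strand (Isg15), chr19:34583279-34583578 on the plus strand (Ifit3), chr8:71537423-71537722 on the minus strand (Bst2), chr10:128270248-128270547 on the plus strand (Stat2), chr19:34601919-34602218 on the minus strand (Ifit1bl1) and chr11:83116570-83116869 on the plus strand (Slfn1).
Isg15: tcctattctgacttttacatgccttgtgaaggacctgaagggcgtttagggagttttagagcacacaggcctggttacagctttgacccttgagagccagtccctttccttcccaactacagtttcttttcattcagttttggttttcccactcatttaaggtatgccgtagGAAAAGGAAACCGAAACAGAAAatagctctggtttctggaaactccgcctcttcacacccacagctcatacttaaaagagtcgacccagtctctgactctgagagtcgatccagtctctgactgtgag
Ifit3: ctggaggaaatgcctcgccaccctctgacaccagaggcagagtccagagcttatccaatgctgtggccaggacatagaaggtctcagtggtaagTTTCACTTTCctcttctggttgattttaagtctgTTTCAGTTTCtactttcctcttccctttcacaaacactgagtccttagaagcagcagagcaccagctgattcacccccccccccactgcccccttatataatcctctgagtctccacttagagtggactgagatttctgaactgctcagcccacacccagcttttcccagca
Bst2: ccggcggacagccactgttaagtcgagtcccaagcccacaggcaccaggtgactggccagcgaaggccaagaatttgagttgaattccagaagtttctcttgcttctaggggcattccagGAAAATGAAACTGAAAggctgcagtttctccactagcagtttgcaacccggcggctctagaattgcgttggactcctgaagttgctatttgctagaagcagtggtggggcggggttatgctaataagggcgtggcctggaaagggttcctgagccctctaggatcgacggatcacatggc
Stat2: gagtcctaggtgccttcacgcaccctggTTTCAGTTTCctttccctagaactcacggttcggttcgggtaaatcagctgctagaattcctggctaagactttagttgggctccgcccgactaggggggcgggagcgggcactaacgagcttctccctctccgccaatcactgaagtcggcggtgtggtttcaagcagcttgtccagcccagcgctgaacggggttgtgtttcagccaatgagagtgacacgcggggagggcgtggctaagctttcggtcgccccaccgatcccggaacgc
Ifit1bl1: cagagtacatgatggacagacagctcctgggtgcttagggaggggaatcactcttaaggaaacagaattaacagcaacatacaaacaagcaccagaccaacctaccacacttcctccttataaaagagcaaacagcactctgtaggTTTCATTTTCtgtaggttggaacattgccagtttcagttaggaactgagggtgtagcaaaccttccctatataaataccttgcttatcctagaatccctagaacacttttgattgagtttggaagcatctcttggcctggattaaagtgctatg
Slfn1: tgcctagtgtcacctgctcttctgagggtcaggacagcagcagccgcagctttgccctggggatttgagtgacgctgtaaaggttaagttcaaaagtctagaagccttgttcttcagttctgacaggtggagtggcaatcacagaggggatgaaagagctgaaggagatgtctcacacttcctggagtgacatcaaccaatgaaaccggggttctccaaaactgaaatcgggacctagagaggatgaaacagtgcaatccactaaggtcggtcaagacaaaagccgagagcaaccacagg

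The Isg15 promoter holds 3 overlapping cores, beginning at positions -78, -72 and -66, counted from 0 at the start site. The 2 cores of Bst2 overlap too, at -130 and -124, while those of Ifit3 stand apart at -156 and -122. Stat2 has 1 core at -222 and Ifit1bl1 has 1 at -104 in the window shown. Another window of Ifit1bl1 has 1 at -23. Over all windows of the matched members, the 30 matches began between positions -222 and 32. Overlapping matches were counted separately, and so was a core lying in more than 1 window, as in Slfn8.

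Across the 8 libraries the members tended to be high or low together, and the SRC-3ff libraries stood lowest. The median member deviated from its own mean over the 8 libraries by 0.30 and 0.04 on the log2(FPKM + 1) scale in KO YFP+ and by 0.05 and -0.03 in KO YFP-. The same median was 0.09 and 0.37 in WT YFP+ and -0.31 and -0.62 in SRC-3ff. Medians over all 14134 genes tested stayed between -0.03 and 0.02. The member FPKM summed to 1620.5 and 1415 in KO YFP+, 1403 and 1158 in KO YFP-, 1373 and 1574 in WT YFP+ and 1012 and 832 in SRC-3ff. The KO YFP+ sums were 0.407% and 0.340% of all FPKM, against 0.262% and 0.204% for SRC-3ff.

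**Figure D1:**
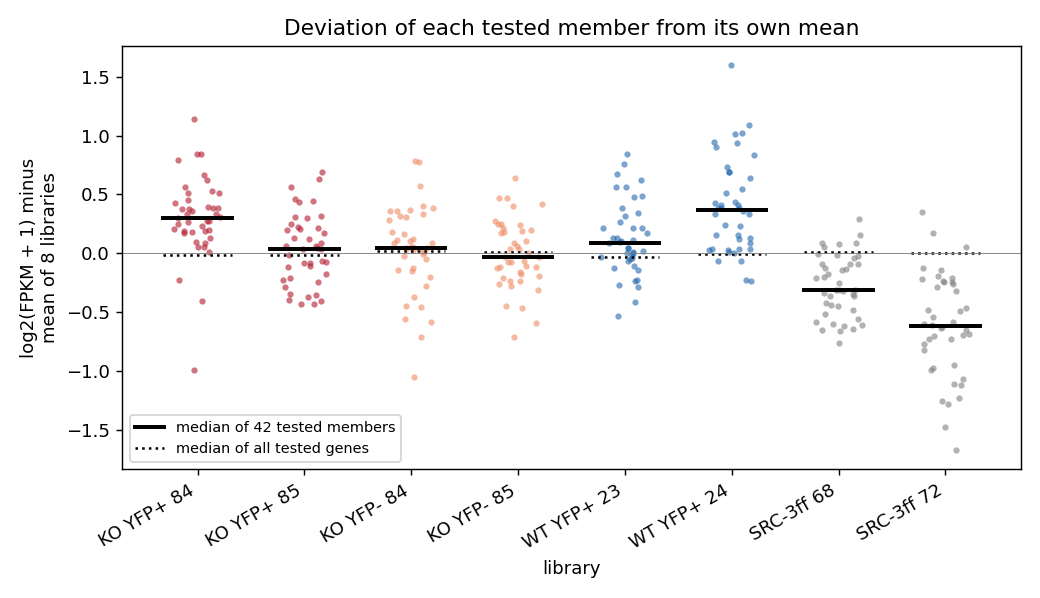
Deviation of each tested member (points) from its own mean over the 8 libraries, in log2(FPKM + 1), by library, with the median of the 42 members and that of all 14134 genes. Both SRC-3ff libraries have a negative member median (-0.31 and -0.62), and KO YFP+ 84 and WT YFP+ 24 have the highest (0.30 and 0.37).

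A single library, SRC-3ff 72, held the lowest value for 33 of the 44 members, while KO YFP+ 84 held the highest for 17 and WT YFP+ 24 for 14. The matching shares over all genes were not counted. The libraries of a group also differed in a shared direction, most clearly in SRC-3ff. There, 38 of 42 members were higher in 68 than in 72, where 50.2% of all genes were. The median gap was 0.28, against 0.00 over all genes. In KO YFP+, 31 of 42 were higher in 84 than in 85 (49.0% of all genes), with a median gap of 0.27. In KO YFP-, 26 of 42 were higher in 84 (51.9% of all genes), with a median gap of 0.07. In WT YFP+, 14 of 42 were higher in 23 than in 24 and 28 lower, where 43.3% of all genes were higher in 23. The WT YFP+ median gap was -0.16, against -0.04 over all genes. Members of this set are therefore not independent readings of a group, and counts of members below are to be read as counts of linked genes.

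**Figure D2:**
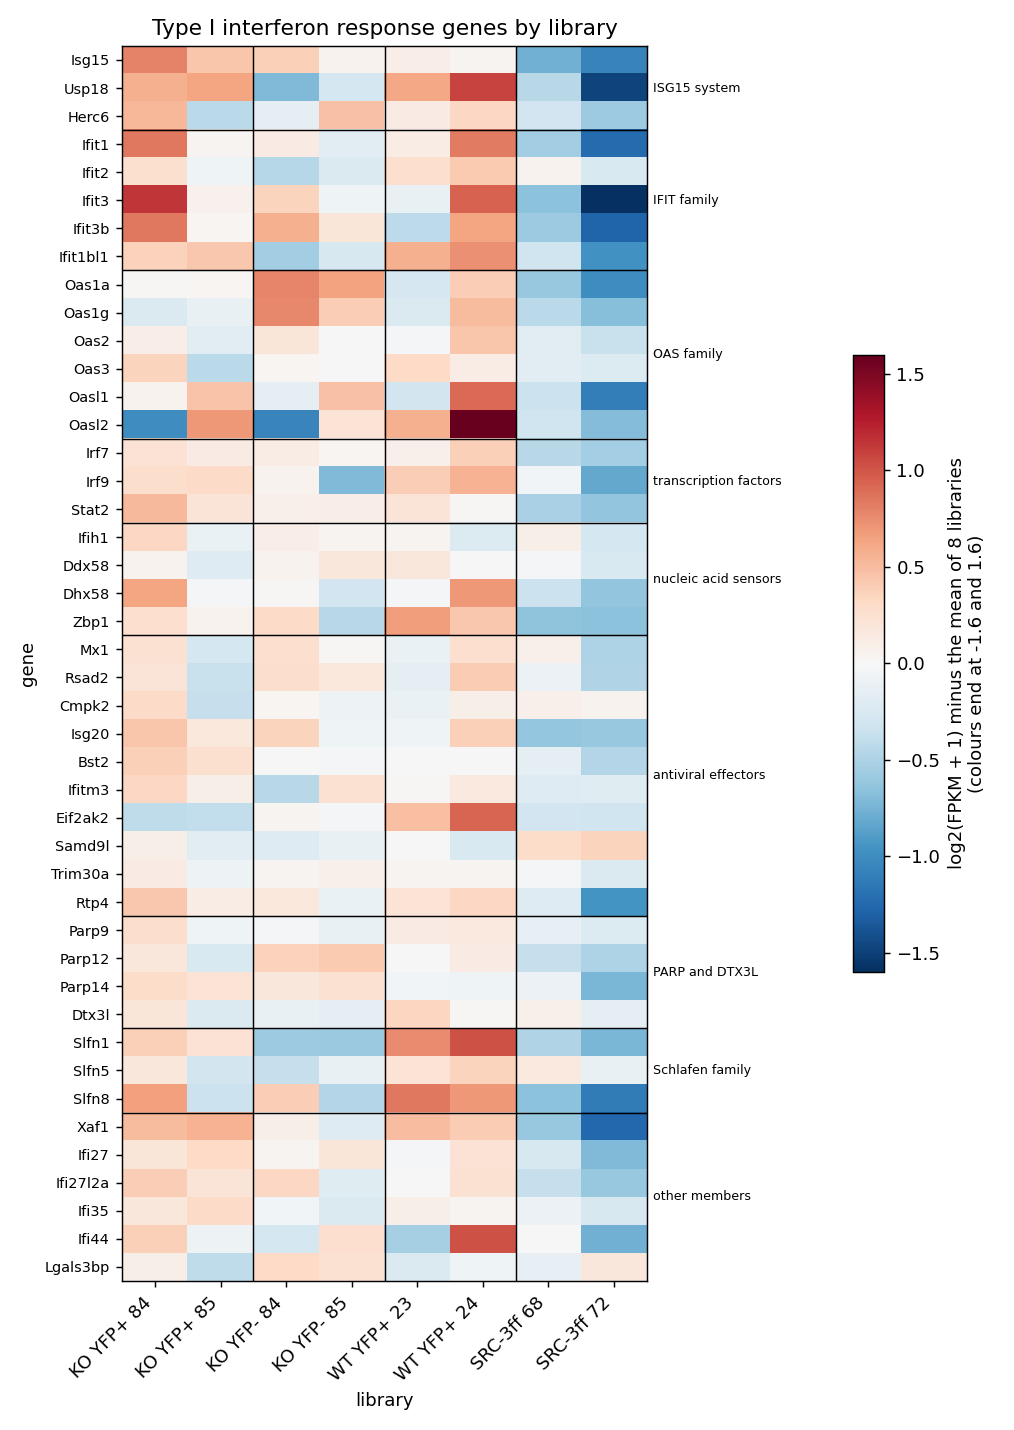
Difference of each of the 44 members (rows, by role) from its own mean over the 8 libraries (columns), in log2(FPKM + 1), red above and blue below the mean. The 2 SRC-3ff columns are mostly blue, and 33 members have their lowest value in SRC-3ff 72.

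The transcription factors that drive the response were present in every library. Irf7, the inducer of interferon alpha genes, had 25.9 and 24.0 FPKM in KO YFP+, 23.8 and 22.4 FPKM in KO YFP-, 23.2 and 28.9 FPKM in WT YFP+ and 15.8 and 14.7 FPKM in SRC-3ff. Stat2, a subunit of ISGF3, had 26.8 and 21.5 FPKM in KO YFP+, 19.6 and 20.0 FPKM in KO YFP-, 21.5 and 18.8 FPKM in WT YFP+ and 12.6 and 11.5 FPKM in SRC-3ff. Both genes were lower in the 2 SRC-3ff libraries than in every other library. Irf9, the DNA-binding subunit of ISGF3, had 52.0 and 52.9 FPKM in KO YFP+, 44.2 and 25.7 FPKM in KO YFP-, 56.2 and 63.0 FPKM in WT YFP+ and 41.5 and 23.7 FPKM in SRC-3ff. Its KO YFP- and SRC-3ff libraries overlapped, and both YFP+ groups lay above them.

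Against SRC-3ff, Stat2 rose in KO YFP+ by 0.94 ± 0.14 (log2 fold change on the log2(FPKM + 1) scale ± SE, here and below), with a limma adjusted p of 0.012. Irf7 rose in KO YFP+ by 0.68 ± 0.13 (limma adjusted p = 0.0238). In WT YFP+ against the same SRC-3ff libraries, Irf7 rose by 0.73 ± 0.13 (adjusted p = 0.0171, limma) and Stat2 by 0.70 ± 0.14 (adjusted p = 0.0248, limma). Irf9 passed in neither, at 0.72 ± 0.31 in KO YFP+ and 0.90 ± 0.31 in WT YFP+ (limma adjusted p of 0.176 and 0.121). Between KO YFP+ and WT YFP+ the 3 factors differed by 0.25 ± 0.14 for Stat2, -0.05 ± 0.13 for Irf7 and -0.18 ± 0.31 for Irf9, and none passed.

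Isg15, a ubiquitin-like protein joined to other proteins in the response, was the member whose difference between KO YFP+ and SRC-3ff passed under every alternative tried. It had 51.3 and 40.0 FPKM in KO YFP+, 38.3 and 30.3 FPKM in KO YFP-, 31.4 and 29.9 FPKM in WT YFP+ and 16.7 and 13.4 FPKM in SRC-3ff. The KO YFP+ libraries were the 2 highest and the SRC-3ff libraries the 2 lowest of the 8. Isg15 rose by 1.54 ± 0.17 in KO YFP+ against SRC-3ff (limma adjusted p = 0.00592). It rose by 0.99 ± 0.17 in WT YFP+ against SRC-3ff (limma adjusted p = 0.0178). KO YFP- against SRC-3ff gave 1.14 ± 0.17, just outside the threshold at an adjusted p of 0.0504 in limma and inside it, at 0.0422, once the knockout numbers were blocked. KO YFP+ against WT YFP+ gave 0.55 ± 0.17 with no overlap of libraries, which did not pass (limma adjusted p = 0.35).

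Usp18, which strips ISG15 from proteins and restrains receptor signaling, had 37.5 and 39.3 FPKM in KO YFP+, 15.0 and 20.5 FPKM in KO YFP-, 39.1 and 54.4 FPKM in WT YFP+ and 18.2 and 8.37 FPKM in SRC-3ff. Both YFP+ groups lay above both other groups. It rose by 1.55 ± 0.34 in KO YFP+ and by 1.81 ± 0.34 in WT YFP+ against SRC-3ff (limma adjusted p of 0.0349 and 0.0212). Neither KO YFP+ against KO YFP- (1.09 ± 0.34, limma adjusted p = 0.134) nor KO YFP- against WT YFP+ (-1.35 ± 0.34, limma adjusted p = 0.0547) passed. Herc6, the mouse ligase for ISG15, ranged from 1.88 to 5.20 FPKM and passed in no comparison.

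The IFIT proteins bind viral RNA and block its translation, and 5 family members were measured. Ifit1bl1 had 41.5 and 43.4 FPKM in KO YFP+, 21.3 and 26.5 FPKM in KO YFP-, 47.5 and 53.4 FPKM in WT YFP+ and 25.4 and 15.7 FPKM in SRC-3ff. Like Usp18, it was high in the YFP+ groups of both genotypes and low in the other groups. It rose by 1.05 ± 0.22 in KO YFP+ and by 1.29 ± 0.22 in WT YFP+ against SRC-3ff (limma adjusted p of 0.0311 and 0.0152). It fell by 1.05 ± 0.22 (SE) in KO YFP- against WT YFP+ (limma adjusted p = 0.0289).

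Ifit3 had 27.9 and 12.7 FPKM in KO YFP+, 15.9 and 11.6 FPKM in KO YFP-, 11.1 and 24.2 FPKM in WT YFP+ and 7.36 and 3.13 FPKM in SRC-3ff. Its fold over SRC-3ff was the largest of any member in KO YFP+, at 1.76 ± 0.51, but the libraries within groups were far apart and the adjusted p was 0.0755 in limma. WT YFP+ over SRC-3ff gave 1.57 ± 0.51 (limma adjusted p = 0.109), and KO YFP+ over WT YFP+ gave 0.19 ± 0.51, with the 2 groups overlapping. Ifit1 and Ifit3b were likewise lowest in the 2 SRC-3ff libraries and did not pass, with 1.34 ± 0.36 and 1.37 ± 0.44 in KO YFP+ over SRC-3ff. Ifit2 ranged from 5.35 to 10.7 FPKM, and its SRC-3ff libraries lay inside that range. Of the annotated transcript sequence, 51.2% of Ifit3 in stretches of 50 bases was shared with other genes, chiefly Ifit3b, so reads may have been divided between them.

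The oligoadenylate synthetases make the messenger that activates RNase L, and 5 of the 6 family members were tested, none of which passed in any comparison. Oas1a had 11.4 and 11.6 FPKM in KO YFP+, 20.1 and 18.2 FPKM in KO YFP-, 9.20 and 15.1 FPKM in WT YFP+ and 7.07 and 5.19 FPKM in SRC-3ff. It was highest in KO YFP-, at 1.51 ± 0.23 over SRC-3ff, with a limma adjusted p of 0.0505 that narrowly missed the threshold. Oas1g also averaged highest in KO YFP-, at 3.55 and 2.51 FPKM, against 0.982 and 0.653 FPKM in SRC-3ff (1.14 ± 0.28, limma adjusted p = 0.123). Oas1a shared 57.6% of its 50-base stretches with other genes, chiefly Oas1g, and the 2 are uncertain relative to each other. Oas2 did not exceed 0.870 FPKM in any library, and Oas3, at 2.89 to 5.72 FPKM, passed nowhere.

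Oasl2, a synthetase-like gene, separated the knockout libraries by their number. It had 0.168 and 2.75 FPKM in KO YFP+ 84 and 85, 0.121 and 1.70 FPKM in KO YFP- 84 and 85, 2.45 and 6.05 FPKM in WT YFP+ and 0.862 and 0.437 FPKM in SRC-3ff. Both libraries numbered 84 were below every other library. KO YFP+ over WT YFP+ was -1.24 ± 0.66 and WT YFP+ over SRC-3ff 1.59 ± 0.66, and Oasl2 passed in no comparison (limma adjusted p of 0.593 and 0.183 for these). Oasl1 ranged from 0.183 to 3.77 FPKM, lowest in SRC-3ff 72, and also passed in none.

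**Figure D3:**
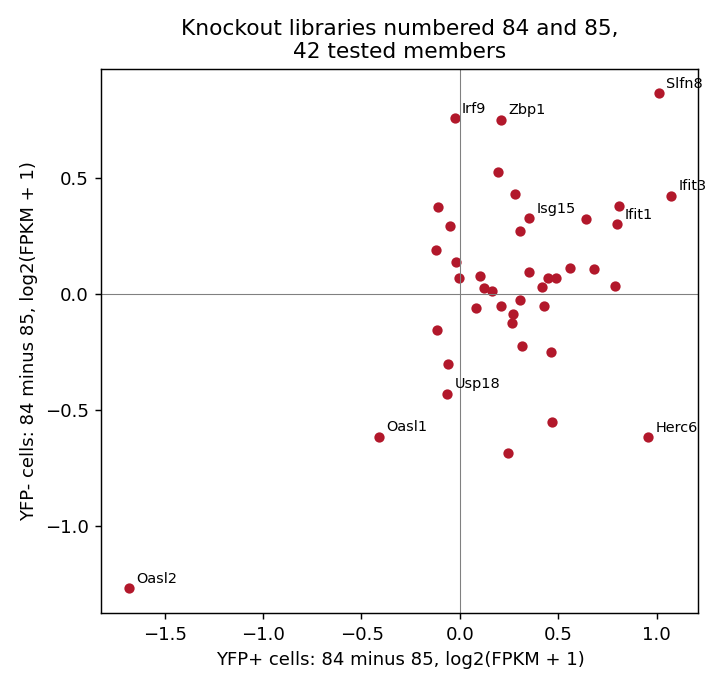
Difference between the knockout libraries numbered 84 and 85 in YFP+ cells (x axis) and YFP- cells (y axis), in log2(FPKM + 1), for each of the 42 tested members. Oasl2 lies far to the lower left, lower in 84 in both sorts, while Slfn8 lies to the upper right and Ifit3 and Herc6 lie far to the right.

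The knockout numbers 84 and 85 occur in both sorts, and they were read as 2 animals. Over the 42 members the differences between 84 and 85 had a Pearson correlation of 0.466 between the sorts, and 0.198 without Oasl2, against 0.137 over all 14134 genes. These points are genes of the same 4 libraries and not independent. Oasl2 had the largest gaps of the members (-1.68 in YFP+ and -1.27 in YFP-), and no gene was taken out of the 14134. The value without Oasl2 is therefore not a like comparison with that of all genes.

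Among the nucleic acid sensors, Zbp1, which recognizes Z-form nucleic acid and can trigger cell death, had 43.7 and 37.7 FPKM in KO YFP+, 44.9 and 26.2 FPKM in KO YFP-, 58.2 and 49.1 FPKM in WT YFP+ and 22.8 and 22.6 FPKM in SRC-3ff. The SRC-3ff libraries were the 2 lowest and the WT YFP+ libraries the 2 highest. It rose by 1.20 ± 0.23 in WT YFP+ against SRC-3ff (limma adjusted p = 0.0246). KO YFP+ against SRC-3ff gave 0.81 ± 0.23 (limma adjusted p = 0.0736, but 0.0374 once the knockout numbers were blocked). The RNA helicases Ifih1 (MDA5, 2.32 to 4.10 FPKM), Ddx58 (RIG-I) and Dhx58 (LGP2, 6.80 to 18.5 FPKM) passed in no comparison. Ddx58 was even across groups, from 23.9 to 32.4 FPKM.

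The antiviral effectors were divided. Bst2, or tetherin, which holds budding virus at the cell surface, had 95.3 and 87.4 FPKM in KO YFP+, 73.1 and 71.7 FPKM in KO YFP-, 73.7 and 73.5 FPKM in WT YFP+ and 66.3 and 52.9 FPKM in SRC-3ff. KO YFP+ stood above all other groups, and KO YFP- and WT YFP+ were nearly level. It rose by 0.62 ± 0.12 in KO YFP+ against SRC-3ff (limma adjusted p = 0.0263). Against WT YFP+ (0.31 ± 0.12, limma adjusted p = 0.44) and against KO YFP- (0.33 ± 0.12, limma adjusted p = 0.195), the KO YFP+ libraries did not overlap the others but Bst2 did not pass. Isg20, an exonuclease that degrades viral RNA, had 37.7 and 30.9 FPKM in KO YFP+, against 17.5 and 17.7 FPKM in SRC-3ff, and rose by 0.92 ± 0.20 (limma adjusted p = 0.0353).

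Eif2ak2, the kinase PKR that halts translation, was the member with the largest gap between genotypes in YFP+ cells after Oasl2. It had 1.04 and 1.05 FPKM in KO YFP+, 1.78 and 1.65 FPKM in KO YFP-, 2.76 and 4.17 FPKM in WT YFP+ and 1.18 and 1.16 FPKM in SRC-3ff. Its WT YFP+ libraries were the highest, and KO YFP+ lay just below SRC-3ff. It rose by 1.02 ± 0.20 in WT YFP+ against SRC-3ff (limma adjusted p = 0.0256), and KO YFP+ against WT YFP+ gave -1.11 ± 0.20, which did not pass (limma adjusted p = 0.0903). These are low levels, and log2(FPKM + 1) understates their fold.

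Mx1, a GTPase against influenza viruses that is defective in most inbred mouse strains, had 0.973 and 0.367 FPKM in KO YFP+, 1.001 and 0.681 FPKM in KO YFP-, 0.547 and 0.995 FPKM in WT YFP+ and 0.754 and 0.176 FPKM in SRC-3ff. All groups overlapped, and it was too low to test. Rsad2 (viperin) stayed between 0.341 and 1.50 FPKM. Samd9l had 6.54 and 5.24 FPKM in KO YFP+, 5.11 and 5.49 FPKM in KO YFP-, 6.05 and 4.97 FPKM in WT YFP+ and 7.61 and 7.99 FPKM in SRC-3ff. Its SRC-3ff libraries were the highest of the 8, and WT YFP+ against SRC-3ff gave -0.44 ± 0.16 (limma adjusted p = 0.137). In KO YFP+ against SRC-3ff, Samd9l, Lgals3bp, Cmpk2, Eif2ak2 and Slfn5 were the 5 of 42 members with a negative difference, and none passed. Cmpk2 (a mitochondrial nucleotide kinase), Ifitm3 (a block to viral entry), Trim30a and Rtp4 ranged from 3.596 to 23.3 FPKM and passed in no comparison. The ADP-ribosyltransferase genes Parp9, Parp12 and Parp14 and the ubiquitin ligase gene Dtx3l, whose product binds Parp9, ranged from 3.08 to 24.8 FPKM and did not pass either. The spans of Parp9 and Dtx3l overlap on opposite strands, and whether counting used strand is not given in the sources used here.

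Slfn1, a Schlafen gene linked to T cell quiescence in mice, passed in 4 comparisons, more than any other member. It had 56.9 and 50.8 FPKM in KO YFP+, 28.6 and 28.3 FPKM in KO YFP-, 73.9 and 88.8 FPKM in WT YFP+ and 30.7 and 25.7 FPKM in SRC-3ff. WT YFP+ was highest, KO YFP+ intermediate, and KO YFP- lay within the range of SRC-3ff. Slfn1 rose by 1.50 ± 0.13 in WT YFP+ against SRC-3ff (limma adjusted p = 0.00171). It rose by 0.91 ± 0.13 in KO YFP+ against SRC-3ff (limma adjusted p = 0.012) and by 0.89 ± 0.13 in KO YFP+ against KO YFP- (limma adjusted p = 0.0149). It fell by 1.48 ± 0.13 (SE) in KO YFP- against WT YFP+ (limma adjusted p = 0.00172). KO YFP+ against WT YFP+ gave -0.58 ± 0.13, with no overlap, and did not pass (limma adjusted p = 0.173).

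Slfn8 had 18.9 and 8.86 FPKM in KO YFP+, 15.5 and 8.07 FPKM in KO YFP-, 21.5 and 19.3 FPKM in WT YFP+ and 6.94 and 4.77 FPKM in SRC-3ff, and rose by 1.66 ± 0.39 in WT YFP+ against SRC-3ff (limma adjusted p = 0.0461). In both knockout sorts the library numbered 84 was well above 85. Slfn5 ranged from 7.99 to 13.9 FPKM and passed nowhere.

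Of the remaining members, Xaf1, an antagonist of the apoptosis inhibitor XIAP, had 13.0 and 13.5 FPKM in KO YFP+, 9.44 and 7.50 FPKM in KO YFP-, 12.8 and 12.1 FPKM in WT YFP+ and 5.47 and 3.11 FPKM in SRC-3ff. It was nearly equal in the YFP+ groups of both genotypes. Xaf1 rose by 1.46 ± 0.22 in KO YFP+ and by 1.38 ± 0.22 in WT YFP+ against SRC-3ff (limma adjusted p of 0.014 and 0.0133). Ifi27l2a was the most abundant member, with 619.7 and 542 FPKM in KO YFP+, 596 and 413 FPKM in KO YFP-, 468 and 558 FPKM in WT YFP+ and 366 and 308 FPKM in SRC-3ff. Its call in KO YFP+ against SRC-3ff was the nearest to the threshold, at 0.79 ± 0.19 and a limma adjusted p of 0.0497. Its neighbor Ifi27, at 89.9 and 97.7 FPKM in KO YFP+ and 65.6 and 47.7 FPKM in SRC-3ff, rose by 0.73 ± 0.17 in KO YFP+ against SRC-3ff (limma adjusted p = 0.039), but its adjusted p was 0.0534 once the knockout numbers were blocked. Ifi35 (55.0 to 82.0 FPKM), Ifi44 (0.507 to 4.19 FPKM) and the secreted glycoprotein gene Lgals3bp (38.7 to 64.3 FPKM) passed in no comparison.

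**Figure D4:**
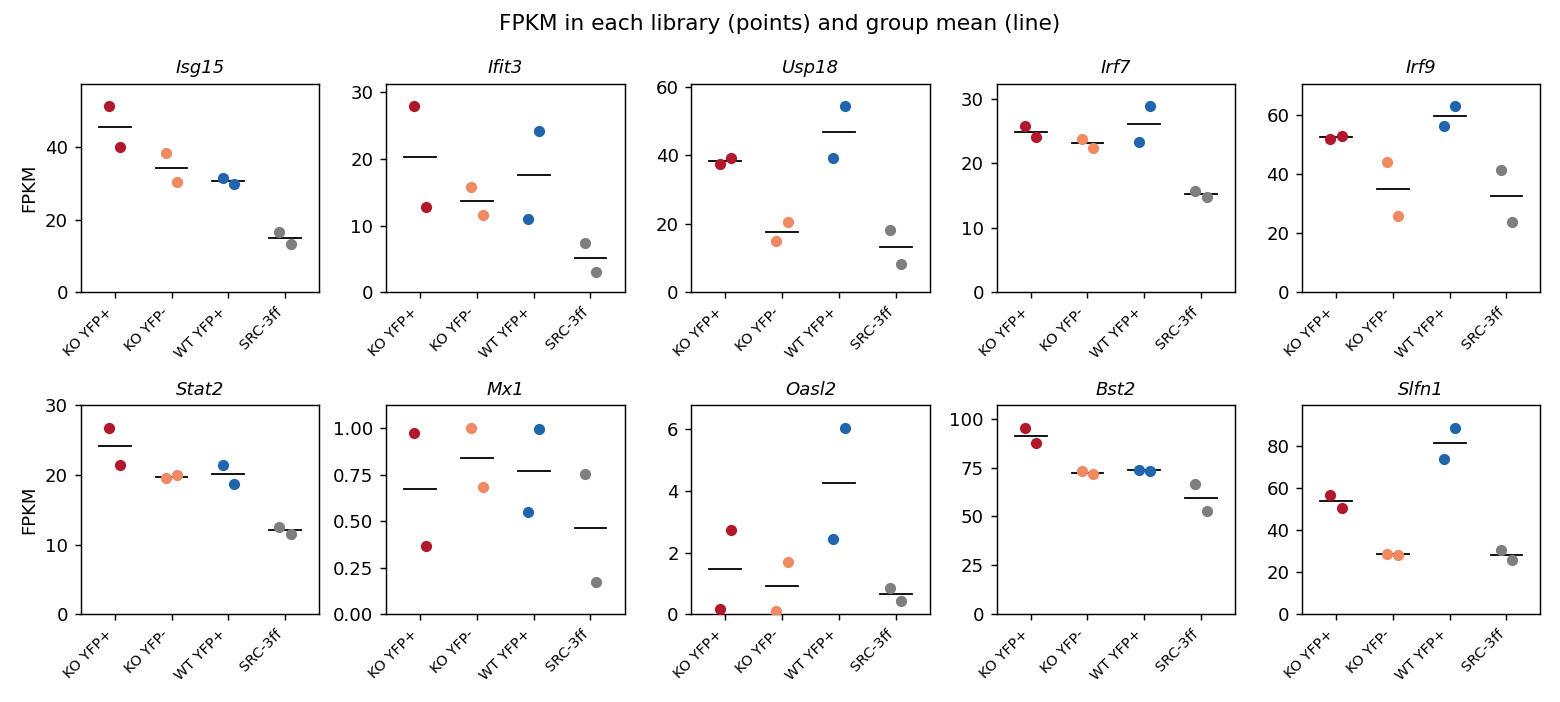
FPKM of 10 members in each library (points) with group means (lines), the axes starting at 0. Isg15, Stat2, Irf7, Usp18 and Slfn1 have their SRC-3ff points below both YFP+ groups, Bst2 is highest in KO YFP+, and Mx1 overlaps in all groups.

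Set side by side, the comparisons differed in how many members passed. In KO YFP+ against WT YFP+, 0 of 42 members passed, where 0.757% of all genes did. At an unadjusted p below 0.05 in limma, 4 of 42 did (Isg15 and Bst2 higher, Eif2ak2 and Slfn1 lower), where 10.4% of all genes did. The median member differed by -0.04, against 0.01 over all genes. It was 0.12 without KO YFP+ 85 and -0.22 without KO YFP+ 84, so that its sign turned on which library was kept, and it also became positive (0.06) without WT YFP+ 24. No difference between the YFP+ groups of the 2 genotypes was detectable in these genes at this number of libraries.

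In KO YFP+ against KO YFP-, 1 of 42 members, Slfn1, was higher, where 1.44% of all genes were higher. The median member differed by 0.17, against -0.02 over all genes, and 31 of 42 differences were positive. The Slfn1 call was lost without any of the 4 libraries compared (KO YFP+ 84 or 85, KO YFP- 84 or 85), with adjusted p up to 0.092 in limma. Without either SRC-3ff library, which enter only the shared spread, Usp18 and Ifit1bl1 passed too.

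In KO YFP+ against SRC-3ff, 11 of 42 members were higher and 0 lower, where 4.15% of all genes were higher. They were Isg15, Stat2, Slfn1, Xaf1, Irf7, Bst2, Ifit1bl1, Usp18, Isg20, Ifi27 and Ifi27l2a. The median member differed by 0.64, against -0.02 over all genes, and 37 of 42 differences were positive. In 27 of 42 members both KO YFP+ libraries exceeded both SRC-3ff libraries, where 28.9% of all genes did so. Without SRC-3ff 72 the median member difference was 0.39 and 1 member passed. The count was also 1 without KO YFP+ 84 and 2 without KO YFP+ 85. The call of Isg15 held with each of the 8 libraries left out, at adjusted p up to 0.041 in limma, and the other 10 were all lost without KO YFP+ 84 and without SRC-3ff 72. Of these, all but Stat2 were lost without KO YFP+ 85 too. Irf7, Isg20 and Ifi27l2a were also lost without SRC-3ff 68, Usp18 without KO YFP- 85, Ifi27 without WT YFP+ 23 or either KO YFP- library, and Ifi27l2a without either WT YFP+ library.

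In WT YFP+ against the same SRC-3ff libraries, 10 of 42 members were higher and 0 lower, where 3.73% of all genes were higher. They were Slfn1, Xaf1, Ifit1bl1, Irf7, Isg15, Usp18, Zbp1, Stat2, Eif2ak2 and Slfn8. The median member differed by 0.69, against -0.03 over all genes, and 39 of 42 differences were positive. Both WT YFP+ libraries exceeded both SRC-3ff libraries in 35 of 42 members, where 26.0% of all genes did so. Without SRC-3ff 72 the median was 0.50 and 3 members passed, while 4 passed without WT YFP+ 23 and 1 without WT YFP+ 24. Zbp1, Stat2, Eif2ak2 and Slfn8 were also lost without SRC-3ff 68. Slfn1 held with each of the 8 libraries left out, at adjusted p up to 0.0135 in limma.

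In KO YFP- against SRC-3ff, 0 of 42 members passed, where 0.644% of all genes did. At an unadjusted p below 0.05 in limma, 18 of 42 did, 17 of them higher, where 18.3% of all genes did. The median member differed by 0.42, against 0.01 over all genes, with 37 of 42 differences positive. Both KO YFP- libraries exceeded both SRC-3ff libraries in 28 of 42 members, where 27.4% of all genes did so. Without SRC-3ff 72 the median was 0.27. The 3 comparisons with SRC-3ff share its 2 libraries, so their values are given side by side and are not independent.

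In KO YFP- against WT YFP+, 2 of 42 members, Slfn1 and Ifit1bl1, were lower and 0 higher, where 3.37% of all genes were lower. The median member differed by -0.17, against 0.03 over all genes. The Slfn1 call held with each library left out, at adjusted p up to 0.0162 in limma. The Ifit1bl1 call was lost without any 1 of the KO YFP+, KO YFP- or WT YFP+ libraries, at adjusted p up to 0.14.

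**Figure D5:**
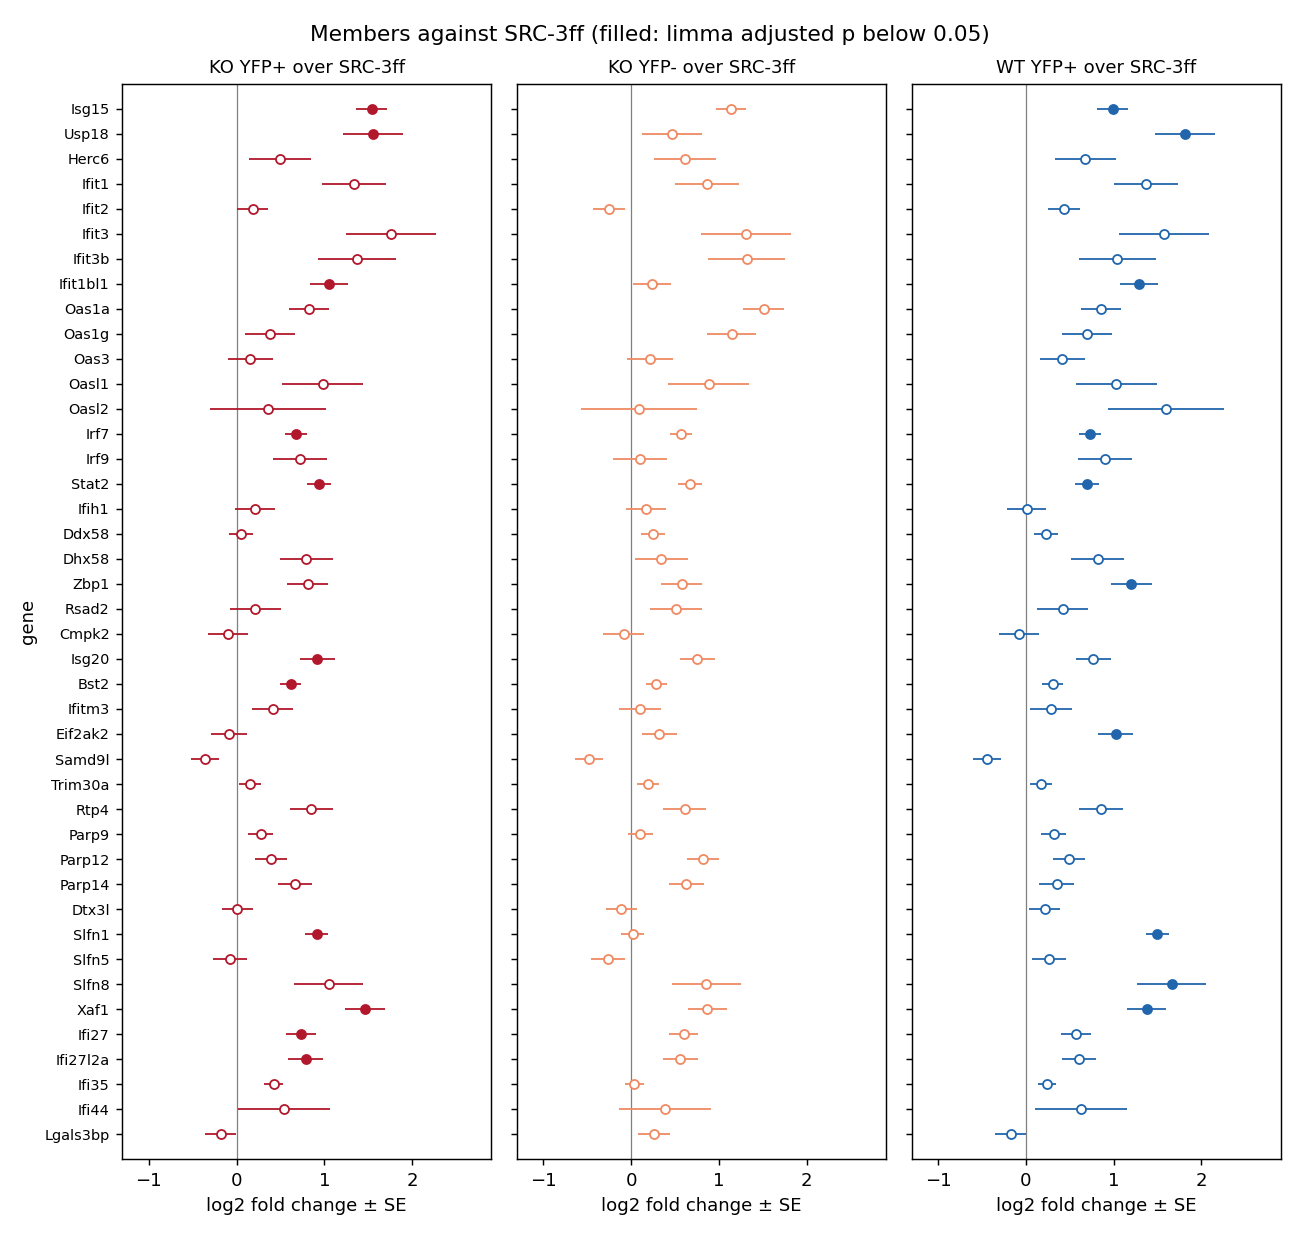
Log2 fold change ± SE, on the log2(FPKM + 1) scale, of the 42 tested members over SRC-3ff in KO YFP+, KO YFP- and WT YFP+ (panels), filled where the limma adjusted p is below 0.05. Most points lie right of 0 in all 3 panels, with 11 filled for KO YFP+, 0 for KO YFP- and 10 for WT YFP+, and the panels share the SRC-3ff libraries. The adjustment was made within each comparison, and 4.15%, 0.375% and 3.73% of all genes, in the same order, passed as higher.

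A sort contrast set the difference of KO YFP+ minus KO YFP- against that of WT YFP+ minus SRC-3ff. The last pair also differs in strain, and the SRC-3ff label names no YFP sort, so it need not be a sort difference. SRC-3ff enters the contrast with a plus sign, so the contrast is not independent of the comparisons above. Here 0 of 42 members passed, where 0.481% of all genes did. At an unadjusted p below 0.05 in limma, 11 of 42 did, 10 of them negative, where 10.4% of all genes did. The median member difference was -0.48, against 0.01 over all genes, and 36 of 42 were negative. Oas1a (-1.54 ± 0.33) and Eif2ak2 (-1.43 ± 0.29) were among the most negative, with limma adjusted p of 0.153 and 0.131.

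Upstream of these genes, the interferons themselves were nearly unrepresented. Of 18 type I interferon genes in the table, 16 were listed at 0 in every library. Ifnz reached 0.557 FPKM in KO YFP- 85 and Ifnk 0.0622 FPKM in KO YFP+ 84. The 13 protein genes of the mitochondrial genome are also listed at 0 in all libraries, so a listed 0 in this table need not mean a missing transcript. The receptor chains and kinases were well represented, and 0 of 4 passed in any comparison. In KO YFP+ against SRC-3ff, which had the most calls, 4.15% of all genes were higher and 6.09% lower. A count of 0 of 4 thus does not set these genes apart. Ifnar1 ranged from 39.1 to 51.5 FPKM and Ifnar2 from 40.0 to 52.7 FPKM over the 8 libraries.

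Among other IRF factors, Irf1, an activator of antiviral and antigen presentation genes, rose by 0.69 ± 0.13 in KO YFP+ against SRC-3ff (limma adjusted p = 0.0251). Irf5, an activator of inflammatory cytokine genes, fell by 0.82 ± 0.17 (SE) there (limma adjusted p = 0.0338). Without KO YFP+ 84, KO YFP+ 85 or SRC-3ff 72, both calls were lost, and that of Irf5 also without SRC-3ff 68.

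Irf5 also passed elsewhere, lower in WT YFP+ cells than in those of SRC-3ff (-0.85 ± 0.17, limma adjusted p = 0.0298) and higher in KO YFP- than in WT YFP+ (0.80 ± 0.17, limma adjusted p = 0.0354). It had 6.40 and 6.72 FPKM in KO YFP+, 10.2 and 13.8 FPKM in KO YFP-, 5.81 and 7.07 FPKM in WT YFP+ and 11.5 and 13.2 FPKM in SRC-3ff. Of 8 tested sensors and adaptors, 2 were higher in KO YFP+ and 2 in WT YFP+ against SRC-3ff, where 4.15% and 3.73% of all genes were. In KO YFP+ against KO YFP-, 1 was higher (1.44% of all genes), and in KO YFP- against WT YFP+ 1 was lower (3.37%). Among them Tlr7, a receptor for viral RNA, ran opposite to Irf5. It had 4.12 and 4.63 FPKM in KO YFP+, 1.49 and 2.12 FPKM in KO YFP-, 4.93 and 4.96 FPKM in WT YFP+ and 2.10 and 1.47 FPKM in SRC-3ff. Tlr7 rose by 0.95 ± 0.19 in KO YFP+ against KO YFP- and by 1.10 ± 0.19 in WT YFP+ against SRC-3ff (limma adjusted p of 0.042 and 0.0178). With the knockout numbers blocked, the adjusted p of Tlr7 in KO YFP+ against KO YFP- was 0.0529 in limma and the call was lost. Each of these 4 calls was lost without WT YFP+ 23 and without WT YFP+ 24, that of Tlr7 in WT YFP+ also without SRC-3ff 72, and the other 3 also when either KO YFP+ library, among others, was left out.

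Of 6 negative regulators of the pathway, 1 passed in any comparison. This was Ptpn11, a phosphatase, which rose by 0.74 ± 0.14 in KO YFP- against WT YFP+ (limma adjusted p = 0.021), where 5.90% of all genes were higher. The call was lost without any 1 of those 4 libraries. Socs1, which blocks Jak kinases, ranged from 29.4 to 51.7 FPKM and passed in none. A list of 40 other interferon-stimulated genes, of which 38 were tested, had 8 higher and 1 lower in KO YFP+ against SRC-3ff, where 4.15% of all genes were higher and 6.09% lower. All 8 higher calls were lost without SRC-3ff 72, and 7 of the 8 without KO YFP+ 84. In WT YFP+ against SRC-3ff, 3 of the list were higher and 2 lower, where 3.73% of all genes were higher and 5.49% lower, and the 3 higher calls were lost without SRC-3ff 72 or WT YFP+ 24. KO YFP- had 1 higher against SRC-3ff (Uba7, where 0.375% of all genes were higher) and 2 higher against WT YFP+ (Ly6a and Tdrd7, where 5.90% were). The calls of Uba7 and Tdrd7 in KO YFP- were lost whichever of the 8 libraries was left out, and with the knockout numbers blocked their adjusted p was 0.0501 and 0.0633 in limma. KO YFP+ had 0 in either direction against WT YFP+, where 0.757% of all genes passed. It also had 0 in either direction against KO YFP-, where 204 of all 14134 genes were higher and 489 lower. The median differences of this list were smaller than those of the members, at 0.28 for KO YFP+, 0.34 for KO YFP- and 0.23 for WT YFP+, each over SRC-3ff.

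Markers of other cell types moved with the groups, and their part in the results above was not tested. The 8 B cell markers summed to 23.1 and 23.1 FPKM in KO YFP+, 66.6 and 70.3 FPKM in KO YFP-, 14.0 and 15.5 FPKM in WT YFP+ and 60.3 and 112 FPKM in SRC-3ff. The 8 NK cell markers summed to 10.2 and 9.84 FPKM in KO YFP+, 82.7 and 153 FPKM in KO YFP-, 9.88 and 9.42 FPKM in WT YFP+ and 52.2 and 97.6 FPKM in SRC-3ff. The 8 plasma cell markers summed to 98.8 and 109 FPKM in KO YFP+, 515 and 363 FPKM in KO YFP-, 92.7 and 133 FPKM in WT YFP+ and 386 and 977 FPKM in SRC-3ff. All 3 sums were higher in the groups not labelled YFP+. Ncr1 of the NK cells was at 0 in the YFP+ libraries and at 2.19 to 4.48 FPKM in the others. Pax5 of the B cells did not exceed 0.0076 FPKM in any library, so it does not separate the groups. Most of the NK cell sum in the YFP+ libraries was Prf1, at 7.997 to 9.21 FPKM there and 8.57 to 13.4 FPKM in the others. Most of the B cell sum there was Cd79b, at 13.1 to 21.9 FPKM, against 25.8 to 38.1 FPKM in the others.

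The 10 monocyte, macrophage and dendritic cell markers summed to 0.435 and 1.21 FPKM in KO YFP+, 5.38 and 3.32 FPKM in KO YFP-, 0.376 and 0.645 FPKM in WT YFP+ and 3.83 and 6.72 FPKM in SRC-3ff. Of the 7 plasmacytoid dendritic cell markers, whose cells are strong interferon producers, Bst2 is itself a member. Siglech, Spib, Klk1 and Cox6a2 did not exceed 0.306 FPKM. Ccr9 had 0.553 and 0.259 FPKM in KO YFP+, 7.98 and 13.0 FPKM in KO YFP-, 1.68 and 2.00 FPKM in WT YFP+ and 7.12 and 5.69 FPKM in SRC-3ff. Tcf4 had 3.33 and 3.14 FPKM in SRC-3ff and at most 1.25 FPKM in the other groups. Of the 2 CD8 T cell markers, Cd8a did not exceed 0.283 FPKM, while Cd8b1 had 8.09 and 7.57 FPKM in KO YFP+, 5.72 and 5.11 FPKM in KO YFP-, 8.67 and 12.2 FPKM in WT YFP+ and 4.20 and 4.12 FPKM in SRC-3ff. Like many members, Cd8b1 was higher than in SRC-3ff in KO YFP+ (0.77 ± 0.18, limma adjusted p = 0.0387) and in WT YFP+ (1.13 ± 0.18, limma adjusted p = 0.0115), and its part in the results was not tested. SRC-3ff 72, lowest for most members, had the highest erythroid sum (20.8 FPKM over 5 genes, against at most 5.41 FPKM elsewhere) and the highest neutrophil sum (6.74 FPKM over 5 genes, against at most 0.512 FPKM).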

How the data were processed

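RNA of splenic Tregs was sequenced from SMART-Seq v4 libraries, per the labels' protocols. The authors deposited FPKM per gene, made with Trim Galore, STAR and StringTie on mm10 (GRCm38), per the submitters' processing notes. Their versions, the annotation and any use of strand were not given in the sources used. Because FPKM hold no counts, the depth is unknown and no counting interval is given.

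The deposited FPKM were tested with limma 3.58.1 in R 4.3.3 (lmFit, eBayes with trend) on log2(FPKM + 1), over the 14134 genes that reached 1 FPKM in 2 libraries or more. One model held the 8 libraries in 4 groups, leaving 4 residual degrees of freedom. The 7 comparisons were each adjusted over all genes (Benjamini-Hochberg, threshold 0.05). An exact permutation test of 2 against 2 libraries cannot go below 0.333. Since the labels do not say that every library came from its own animal, p-values measure the spread between libraries, which may be technical. Replicate numbers 84 and 85 occur in both knockout sorts in the titles and were taken as animals for a block. The differences between 84 and 85 correlated at 0.137 between the sorts over all genes tested.

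The test was tested on simulated data. In KO YFP+ against SRC-3ff over 14134 genes, the test recovered 55% of 100 genes changed by 1 on the log2 scale and 83% of 100 changed by 2. Of the 148 calls, 6.76% were unchanged genes. The simulated noise was independent between genes, and the changed genes averaged above 5 FPKM. Members vary together and some, such as Eif2ak2 and Oasl2, average less, so these rates need not hold for them. The rule for named genes gave 10 members (Isg15, Ifit3, Usp18, Irf7, Irf9, Stat2, Mx1, Oasl2, Bst2 and Slfn1) in every library, and up to 8 called members per comparison with the smallest p; others are named by range or chosen after their values were seen. The members, lists and tests were chosen with earlier results of these data known. Coordinates are those of GRCm38. Promoter windows come from RefSeq on GRCm38.p6. Stretches of 50 bases shared between genes were counted in GENCODE M21 transcripts. Python 3.11.15, pandas 2.3.3 and matplotlib 3.10.9 served for tables and plots. One gene of the other pathway lists is not reported here.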

Additional observations from a re-analysis of the deposited data

How the results depend on the processing

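The limma differences and tests were recomputed with each library left out, with the replicate number as a block and with the 2 compared groups alone. The sort contrast spans 4 groups, so it was not run with 2 alone. Quantile normalization, median-of-ratios scaling, a minimum of 5 FPKM or none, and 0.1 as the pseudocount completed these alternatives. Of the 24 calls of members, 3 held under all of them: Isg15 in KO YFP+ against SRC-3ff, Slfn1 in KO YFP- against WT YFP+ and Slfn1 in WT YFP+ against SRC-3ff. KO YFP+ against WT YFP+ and the sort contrast gave 0 calls throughout, in limma.

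Leaving out libraries, calls ranged from 1 to 11 in KO YFP+ against SRC-3ff (11 with all libraries), from 1 to 10 in WT YFP+ against SRC-3ff (10), from 0 to 3 in KO YFP+ against KO YFP- (1) and from 1 to 3 in KO YFP- against WT YFP+ (2). An arm left with 1 library was assumed to vary like the other groups. With no filter, more genes were tested and calls numbered 3 in KO YFP+ against SRC-3ff, 1 in WT YFP+ against SRC-3ff, 0 in KO YFP+ against KO YFP- and 1 in KO YFP- against WT YFP+. With the 2 groups only, WT YFP+ against SRC-3ff gave 6 and KO YFP+ against KO YFP- 3. KO YFP- against WT YFP+ gave 4 under median-of-ratios scaling and 4 under quantile normalization, the second of which moved the median of all genes there by -0.11. KO YFP- against SRC-3ff gave 2 under median-of-ratios scaling (Isg15 and Oas1a), 1 under quantile normalization (Oas1a) and 1 with the replicate block (Isg15, adjusted p = 0.0422 in limma).

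With the block, KO YFP+ against SRC-3ff gave 12 calls, gaining Zbp1 and Slfn8 and losing Ifi27, and WT YFP+ against SRC-3ff gave 11, gaining Isg20. Beside these and the Isg15 call in KO YFP- against SRC-3ff, it changed no call of a member.

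With 1 library left out, 23 of 42 members turned sign in KO YFP+ against WT YFP+, 19 in KO YFP+ against KO YFP-, 16 in KO YFP- against WT YFP+, 9 in KO YFP+ and 9 in KO YFP- against SRC-3ff, 3 in WT YFP+ against SRC-3ff and 11 in the sort contrast, and 0 of these differences had passed. Ifit3 in KO YFP+ against WT YFP+ ranged from -0.34 (without KO YFP+ 84 or WT YFP+ 23) to 0.73, Irf7 there from -0.21 to 0.10 (without WT YFP+ 24), and Oasl2 in KO YFP+ against SRC-3ff from -0.49 (without KO YFP+ 85) to 1.20. The causes were not tested beyond the libraries removed. Groups of 2, strain and sort that differ together, unknown depth and shared libraries limit all of these values.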

Other observations

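Of 6 proteasome and peptide transport genes in the list of other interferon-stimulated genes, 4 passed as higher in KO YFP+ against SRC-3ff. Of all genes, 4.15% were higher there, and these 4 are among the 8 higher calls already counted for that list. They were grouped after their values were seen, and no test of the group was made. The other 2, the proteasome activator genes Psme1 (0.43 ± 0.21, limma adjusted p = 0.231) and Psme2 (0.37 ± 0.27, limma adjusted p = 0.394), did not pass, and the Psme2 libraries overlapped, with 70.5 and 86.0 FPKM in KO YFP+ and 74.3 and 48.2 FPKM in SRC-3ff. Psmb9, a catalytic subunit of the immunoproteasome, had 190.6 and 182 FPKM in KO YFP+, 146 and 137 FPKM in KO YFP-, 167 and 182 FPKM in WT YFP+ and 115 and 94.7 FPKM in SRC-3ff. It rose by 0.83 ± 0.11 in KO YFP+ against SRC-3ff (limma adjusted p = 0.0103) and by 0.73 ± 0.11 in WT YFP+ against SRC-3ff (limma adjusted p = 0.0117). Psmb8, another such subunit, had 406 and 428 FPKM in KO YFP+, 381 and 355 FPKM in KO YFP-, 402 and 392 FPKM in WT YFP+ and 289 and 283 FPKM in SRC-3ff, and the 2 SRC-3ff libraries lay below all others. It rose by 0.54 ± 0.08 in KO YFP+ and by 0.47 ± 0.08 in WT YFP+ against SRC-3ff (limma adjusted p of 0.0148 and 0.0188).

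Psmb10 had 172 and 194 FPKM in KO YFP+, 159 and 163 FPKM in KO YFP-, 139.96 and 132 FPKM in WT YFP+ and 121 and 111 FPKM in SRC-3ff, and rose by 0.65 ± 0.10 in KO YFP+ against SRC-3ff (limma adjusted p = 0.0126). Tap1, which carries peptides into the endoplasmic reticulum, had 94.2 and 83.9 FPKM in KO YFP+ and 61.4 and 57.2 FPKM in SRC-3ff, and rose by 0.58 ± 0.13 (limma adjusted p = 0.0397). None of these calls held with every library left out. All of them were lost without SRC-3ff 72, those in KO YFP+ also without KO YFP+ 85, and those of Psmb8, Psmb9 and Tap1 in KO YFP+ without KO YFP+ 84. Those of Psmb8 and Psmb9 in WT YFP+ were lost without WT YFP+ 24 too, that of Psmb8 there also without WT YFP+ 23 or SRC-3ff 68, and that of Tap1 without either WT YFP+ library or SRC-3ff 68. In KO YFP+ against WT YFP+ none of these 4 genes passed.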
